A study of Mus musculus with 16 samples.

Results

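The translatome of cortical astrocytes after acute stress was compared with the RNA of the whole cortex from which it was pulled. The comparison rests on 8 of the 16 libraries of the series, 4 immunoprecipitates (stress IP) and 4 cleared lysates (stress INPUT). They were chosen by their labels alone, and the 8 libraries of naïve mice entered only where the stressed state was set against them. All mice were C57BL/6J animals aged 3 months that carried Aldh1l1CreERT2-RiboTag, and all, the naïve mice included, had received tamoxifen at 2 months. Stressed mice swam for 20 minutes and then rested for 90 minutes in the home cage before RNA was taken from the somatosensory cortex, whereas naïve mice stayed in the home cage. The methods place the experiments 2 weeks after tamoxifen and the labels 1 month after it. Per the methods 4 males and 4 females were used, and no test here included sex. The tag is made only where the Aldh1l1 promoter has driven Cre, so astrocytes without recombination are missing from the IP, and any other cell type in which that promoter was active is included. Of 24060 genes, 13333 had a mean above 1 CPM (reads of a gene as a share of its library, scaled to 1000000 reads) over the 8 libraries and were tested.

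Astrocytes clear glutamate, GABA and potassium from around synapses, join into networks through gap junctions, store the brain's glycogen, and supply neurons with cholesterol, glutamine and lactate. In RiboTag mice, cells in which Cre has acted make the ribosomal protein Rpl22 with an HA epitope, and an antibody against HA then retrieves their ribosomes with the mRNA on them. The lysate holds RNA of all cortical cells, ribosome-bound or not. A ratio of IP to INPUT is therefore high for an mRNA that is made in astrocytes and loaded on ribosomes, and low for RNA of other cells and for RNA that is not translated. In such bulk samples, fewer cells of a type and less RNA per cell cannot be told apart.

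Between 20280077 and 24887097 reads were counted on genes in stress IP and between 16392876 and 23412103 in stress INPUT, so that 3 reads were at most 0.183 CPM. The 10 most abundant genes took 18.8% ± 0.661 of the reads of stress IP and 3.80% ± 0.111 of those of stress INPUT (SD, n = 4 each). CPM are shares of a library, and the median log2 ratio over all genes tested was −0.63. How much of this shift comes from the most abundant genes was not tested. After scaling by the median ratio of genes that median was 0.01. Ratios are given here on the CPM scale, and the scaled value is given where it changes a direction. Among the stress IP libraries, replicate 15 had the most RNA of neurons and microglia: the summed level of 33 genes that define neuron classes was 315 CPM in it and 223 to 242 CPM in the other 3, and that of 28 microglial genes was 93.0 CPM and 71.0 to 74.7 CPM. For neuron classes it lay within the 255 to 321 CPM of naïve IP, but for microglial genes above the 68.6 to 81.2 CPM of naïve IP. Other neuronal lists varied. Presynaptic genes were at 6182 CPM in it, above the 5604 to 5875 CPM of naïve IP. Neuronal channels and axonal proteins were at 4316 CPM, above 3597 to 4202 CPM, and postsynaptic genes at 3135 CPM, within 2847 to 3243 CPM. For endothelial genes replicate 15 was the lowest stress IP library.

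The 4 astrocyte markers fixed for the comparison were far higher in IP in every library. Kcnj10, the inwardly rectifying potassium channel Kir4.1 (chromosome 1, 172341210 to 172374085 on GRCm38), was at 2638, 2615, 2482 and 2473 CPM in the stress IP libraries and at 87.7, 128, 119 and 83.7 CPM in stress INPUT. Slc1a2, the glutamate transporter GLT-1 (chromosome 2, 102658659 to 102790784), was at 75534, 64672, 69323 and 64625 CPM in IP and at 3373, 3956, 3974 and 3813 CPM in INPUT. Gja1, the gap junction protein connexin 43 (chromosome 10, 56377330 to 56402513), was at 2196, 1908, 1996 and 1853 CPM in IP and at 126, 163, 172 and 151 CPM in INPUT. The lowest IP value of each of these genes was thus more than 10 times its highest INPUT value. Aldh1l1, the folate enzyme whose promoter drove Cre (chromosome 6, 90486427 to 90600203), was at 848, 982, 917 and 1162 CPM in IP and at 87.8, 87.8, 79.6 and 91.97 CPM in INPUT. Their log2 ratios of IP over INPUT, with standard errors, were 4.63 ± 0.12 for Kcnj10, 4.18 ± 0.10 for Slc1a2, 3.71 ± 0.09 for Gja1 and 3.48 ± 0.09 for Aldh1l1, the last of them an 11.2-fold difference (adjusted p at most 2.3e-12, limma with Benjamini-Hochberg adjustment over all genes tested, also used below).

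Across the transcriptome, 11475 genes differed between IP and INPUT of stressed mice, 3143 (23.6% of those tested) higher and 8332 (62.5%) lower in IP. With the median-ratio scaling the shares were nearly equal, 41.6% higher and 40.5% lower. For 10858 genes (81.4%) the 4 IP values lay all above or all below the 4 INPUT values. The ratio was above 2 on the log2 scale for 844 of the genes called higher and below −2 for 2614 of the genes called lower. These large shares are the background for the counts of gene groups that follow. Each animal was homogenized individually per the methods, with part of its lysate kept as INPUT, but which libraries belong together is not given with the samples, and p-values treat them as independent.

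The largest and smallest ratios were taken from genes past the threshold and above 20 CPM in the higher fraction. Non-overlap of their IP and INPUT values was also required, so that the fractions are apart is part of the choice. The 10 largest ratios included Kcnj10 and Slc1a2, described above. Gli2 and Gli3, transcription factors of the Hedgehog pathway, had log2 ratios of 4.27 and 4.18, and Tead1, the DNA-binding partner of Yap, had 4.18. Gli2 was at 47.3, 51.8, 57.3 and 57.1 CPM in IP and at 1.83, 2.95, 3.61 and 2.54 CPM in INPUT. The IP values of this low-level gene were thus all above 40 CPM and its INPUT values all below 4 CPM. Fgd6, an exchange factor for the small GTPase Cdc42, had a mean of 239 ± 10.9 CPM in the IP libraries against 12.8 ± 2.20 CPM in those of INPUT (SD, n = 4), which gave a log2 ratio of 4.23. Celsr1, a cadherin of planar cell polarity, and Plxnb1, a semaphorin receptor, both had 4.17. Ptprz1, a receptor tyrosine phosphatase, had 4.16 and was at 2628, 2393, 2519 and 2636 CPM in IP against 139, 143, 133 and 153 CPM in INPUT. Atp1b2, the glial beta subunit of the sodium pump, had 4.15. The standard errors of these 10 ratios ranged from 0.06 to 0.18.

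The 10 smallest ratios belonged to neurons. Neuropeptides and markers of interneurons led them. Npy (neuropeptide Y) was at 2.59, 2.37, 3.01 and 6.75 CPM in IP and at 211, 245, 216 and 178 CPM in INPUT, a log2 ratio of −5.94 ± 0.26 (SE), with replicate 15 the highest of the IP libraries. Sst (somatostatin) was at 2.54, 2.61, 3.29 and 3.58 CPM in IP and at 169, 166, 165 and 168 CPM in INPUT, a log2 ratio of −5.77 ± 0.11 (SE). The peptide gene Cck had −5.81, the calcium-binding protein Pvalb −5.51 and Crhbp, which binds corticotropin-releasing hormone, −5.15. The tubulin gene Tuba8 had −5.19, Vstm2l −5.15, the secreted neuronal protein Vgf −5.12 and the calmodulin-binding protein Pcp4 −5.10. Snap25, a SNARE protein of nerve terminals, was at 166, 146, 167 and 231 CPM in IP and at 5896, 6884, 6073 and 5721 CPM in INPUT, a log2 ratio of −5.13. Non-overlap of IP and INPUT was required for the choice of these 10 genes. The gap between the groups was more than an order of magnitude, and the highest IP value of each gene was that of replicate 15. The part of this library's other-cell RNA in the small ratios was not tested beyond leaving it out, which moved the median of the neuron class list from −4.02 to −4.17.

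**Figure D1:**
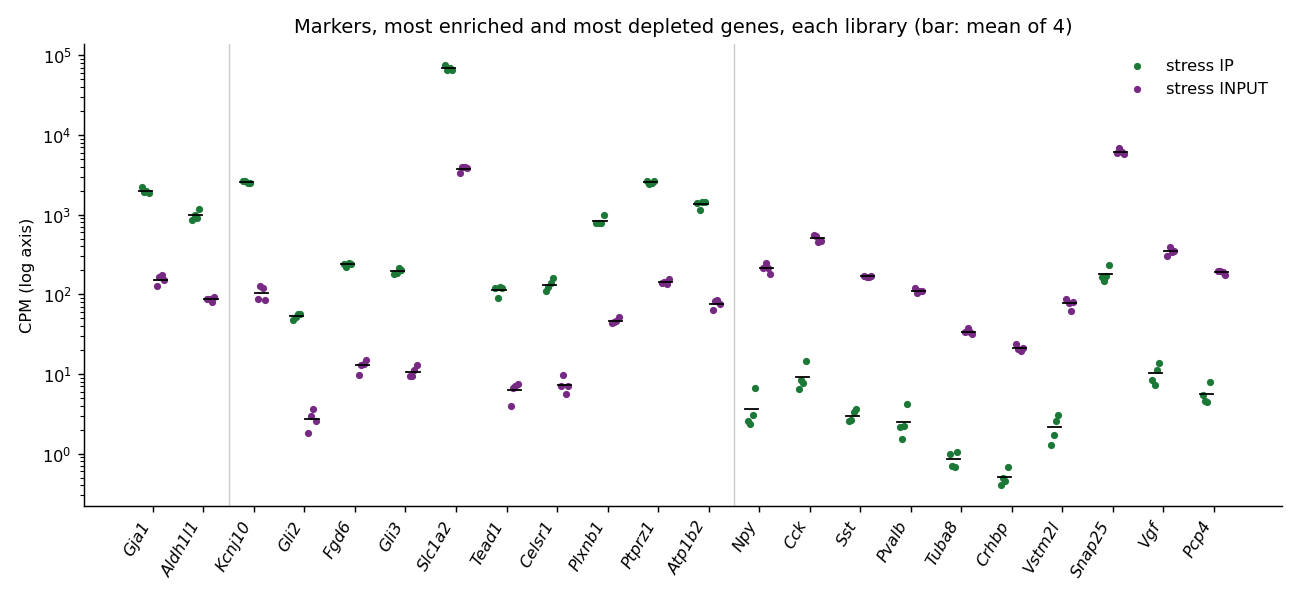
Level in CPM (log axis) of the markers, the 10 most enriched and the 10 most depleted genes in each stress IP library (green) and each stress INPUT library (purple), with a bar at the mean of 4. The IP and INPUT points of each gene are far apart, and for the enriched and depleted genes non-overlap was required for the choice. For Npy the IP point at 6.75 CPM, replicate 15, is above the other 3.

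Enrichment is not abundance. Per kb of exon, the highest level in stress IP was that of Sparcl1, a secreted matricellular protein, with 8005 ± 176 CPM per kb against 1014 ± 35.5 CPM per kb in INPUT. Glul, glutamine synthetase, followed with 6572 ± 479 CPM per kb and Apoe, the main lipoprotein of astrocytes, with 5988 ± 194 CPM per kb. Slc1a2 was at 5219 ± 393 CPM per kb. Others among the 10 highest were the peptide-processing enzyme Cpe (3492 ± 149), the glycolytic enzyme Aldoc (3117 ± 104), the protease inhibitor Cst3 (2405 ± 320), Ndrg2 (2386 ± 122) and the chaperone Clu (1998 ± 136), all in CPM per kb of stress IP. Among the genes given here, each mean was apart from the next by more than the larger of both SDs, except for Cst3 and Ndrg2. Among these 9 genes the log2 ratio ranged from 2.48 for Cst3 to 4.18 for Slc1a2, so Sparcl1, the most abundant, was not among the most enriched with a log2 ratio of 2.98.

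The functions are described from 36 lists, as the plot of gene lists shows. The highest median, beside the markers, was that of gap junctions, potassium and water, 3.17 over 19 genes tested, of which 17 were higher and 1 lower in IP. Slc4a4, the sodium bicarbonate cotransporter, was at 2633, 2717, 2840 and 2720 CPM in IP and at 154, 152, 149 and 180 CPM in INPUT. Its log2 ratio was 4.11, and that of Gjb2, connexin 26 of the meninges and of some astrocytes, was 1.04. The exception was Slc12a2, the chloride importer NKCC1, with 38.4 ± 3.77 CPM in IP and 64.8 ± 3.32 CPM in INPUT, a log2 ratio of −0.76, which was −0.10 and not past the threshold after median-ratio scaling.

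Uptake and recycling of transmitters had a median of 2.56, with 11 of 15 genes higher and 3 lower in IP. Slc1a3, the glutamate transporter GLAST, was at 8424, 8573, 8432 and 7657 CPM in IP and at 622, 615, 618 and 667 CPM in INPUT, a log2 ratio of 3.71. Slc6a11, the GABA transporter GAT-3, had 3.76, and Glul 3.37. The members lower in IP were a pair of aminotransferases and a carrier. Got2, the mitochondrial aspartate aminotransferase, had a log2 ratio of −3.02, Got1, its cytosolic counterpart, −2.51, and Slc25a22, a mitochondrial glutamate carrier, −3.08. Got2 was at 25.7, 23.5, 29.5 and 26.5 CPM in IP and at 205, 223, 212 and 212 CPM in INPUT. Thus the transporters of the plasma membrane and these aminotransferases stood on opposite sides of 0 within the list.

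**Figure D2:**
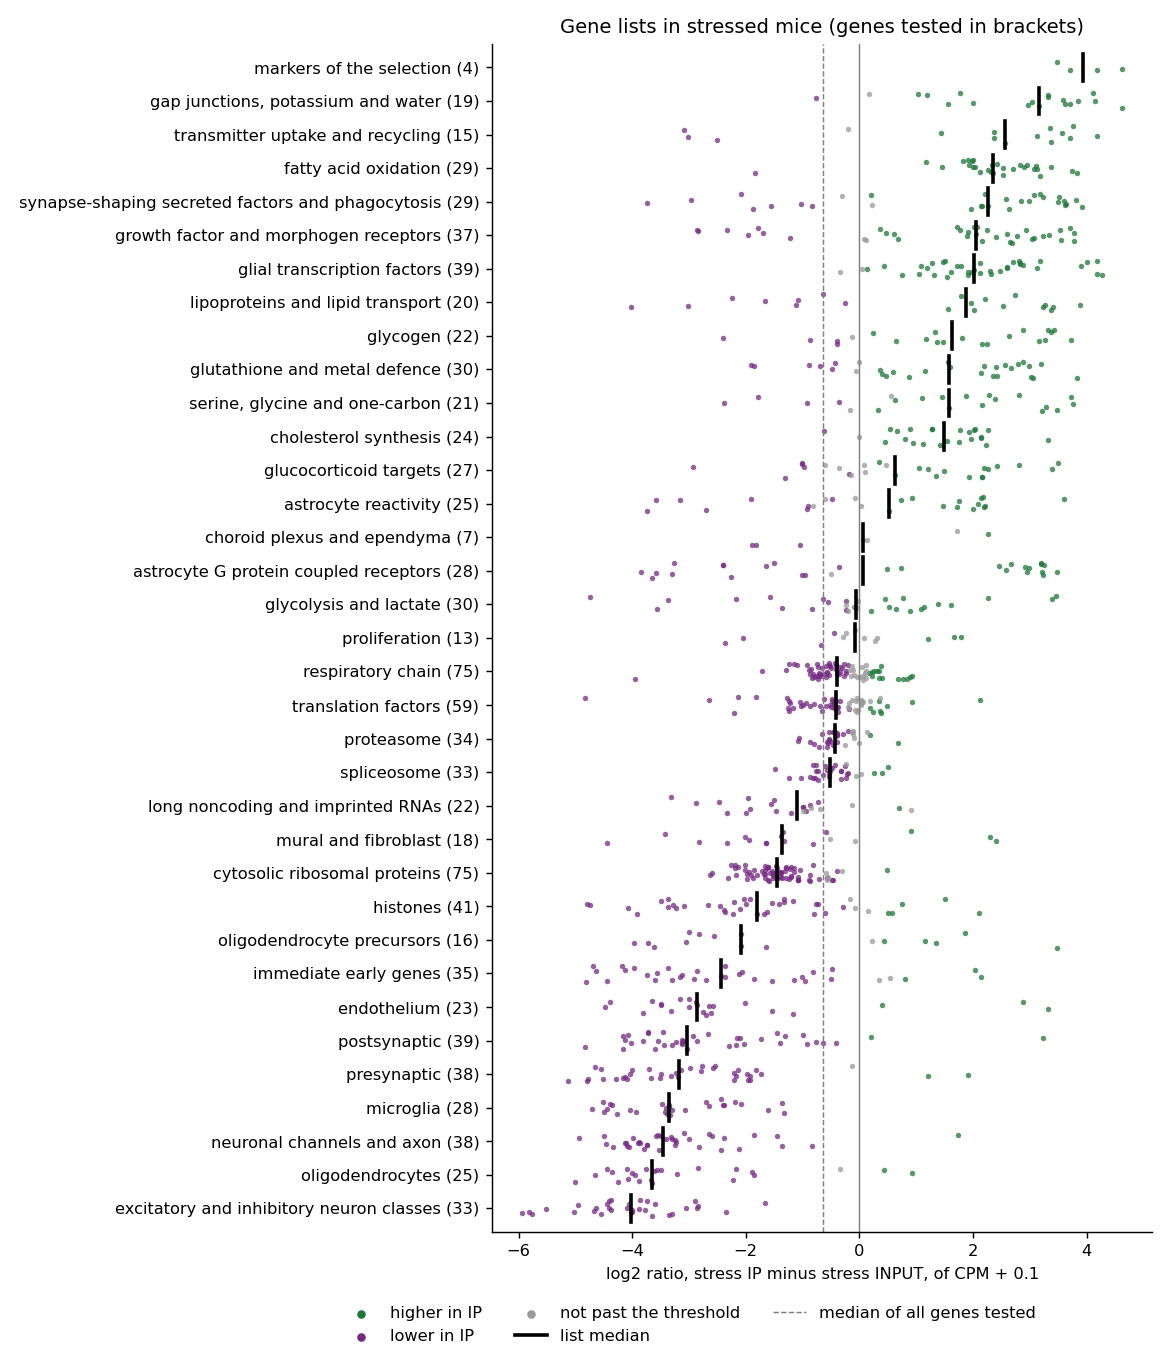
Log2 ratio of stress IP over stress INPUT for each gene tested in 35 lists, ordered by the list median (black bar). Green genes were higher and purple genes lower in IP, grey genes did not pass the threshold, the solid line is 0 and the dashed line is the median of all genes tested, −0.63. Most lists of astrocyte functions lie to the right and most marker lists of other cells to the left, except that choroid plexus and ependyma (0.07) lie beside the astrocyte G protein coupled receptors (0.06), and the respiratory chain, translation factors, proteasome and spliceosome around the dashed line.

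Most genes of lipid metabolism were higher in IP. Fatty acid oxidation had 28 of 29 genes higher in IP and a median of 2.36, led by the acyl-CoA synthetase Acsbg1 (3.83), the carnitine palmitoyltransferase Cpt1a (3.74) and the dehydrogenase Acadl (3.37). Cpt1a was at 319, 349, 351 and 343 CPM in IP and at 24.03, 25.9, 24.2 and 27.7 CPM in INPUT. Its brain isoform Cpt1c was the exception with −1.83, from 24.4 ± 2.50 CPM in IP and 87.1 ± 4.15 CPM in INPUT. Among 24 genes of cholesterol synthesis, 22 were higher in IP, with a median of 1.48. The regulator Srebf1 had 3.32 and the enzymes Cyp51 and Msmo1 had 2.26 and 2.23. The exception Ebp, a sterol isomerase, had −0.63, and this became 0.02, not past the threshold, with median-ratio scaling. Of 20 genes of lipoproteins and lipid transport, 12 were higher and 8 lower, with a median of 1.88. Here Lrp4, a receptor of the lipoprotein receptor family, had 3.89, the sterol exporter Abca1 3.41 and Apoe 3.37. The related exporter Abcg1 had −4.02, at 6.65, 6.66, 5.57 and 6.83 CPM in IP and at 109, 102, 106 and 104 CPM in INPUT. Lipoprotein lipase, Lpl, had −3.01 and Apod, a lipocalin of oligodendrocytes and vessels, −2.24. The exporters Abca1 and Abcg1 thus stood on opposite sides of 0 with no overlap in any library.

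Genes of sugar metabolism lay on both sides of 0. Of 30 genes of glycolysis and lactate, 13 were higher and 11 lower in IP, and the median of −0.06 turned to 0.02 without stress IP replicate 15, to 0.05 without stress INPUT replicate 1 and to 0.59 after median-ratio scaling. Aldoc, the aldolase of astrocytes, was at 10040, 10653, 10125 and 9866 CPM in IP and at 976, 875, 874 and 947 CPM in INPUT. Eno2, the enolase of neurons, was at 30.9, 33.1, 33.3 and 47.1 CPM in IP and at 980, 985, 889 and 950 CPM in INPUT. Their log2 ratios were 3.47 and −4.74, the extremes of the list. Pdk4, a kinase that holds pyruvate back from the mitochondria, had 3.40 and pyruvate carboxylase, Pcx, 2.27. The neuronal glucose transporter Slc2a3 (GLUT3) had −3.56 and the neuronal monocarboxylate transporter Slc16a7 (MCT2) −3.37. Glycogen enzymes were higher in 17 of 22 cases, with a median of 1.64. The phosphorylase Pygm had 3.72 and the phosphorylase kinase subunit Phkg1 3.37, whereas the glycogen synthase kinase Gsk3a had −2.40.

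Amino acid and antioxidant metabolism also lay above 0. For serine, glycine and one-carbon metabolism the median was 1.57, with 15 of 21 genes higher and 4 lower. Gldc, the decarboxylase of the glycine cleavage system, was at 286, 340, 343 and 347 CPM in IP and at 23.97, 24.6, 22.8 and 25.1 CPM in INPUT, a log2 ratio of 3.76. Cbs, which makes cystathionine, had 3.72. Srr, the racemase that makes D-serine, was lower in IP, at 58.02, 57.5, 58.9 and 58.1 CPM against 109, 107, 119 and 105 CPM in INPUT, a log2 ratio of −0.92. The mitochondrial folate enzyme Mthfd1l had −2.38. Among 30 genes of glutathione and metal defence 22 were higher and 6 lower, with a median of 1.58. The zinc transporter Slc39a12 had 3.83 and the glutathione transferase Gstm1 3.19. The peroxidase Gpx1 had −1.86, and Gpx4 had −0.88, which was −0.23 and not past the threshold after median-ratio scaling. Gstm1 belongs to a family of near-identical genes whose reads a counter can split, so its level is uncertain.

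Regulators and receptors of glial development were mostly on the IP side. Of 39 glial transcription factors 37 were higher and 0 lower, with a median of 2.01. Zic1, a zinc finger factor of the meninges and dorsal brain, had the lowest ratio, −0.34 (adjusted p = 0.051), and passed as lower in 6 alternatives, limma-voom among them, but had 0.31 after median-ratio scaling. Among growth factor and morphogen receptors 28 of 37 were higher and 7 lower, with a median of 2.05. Egfr, the receptor of epidermal growth factor, was at 283, 343, 281 and 363 CPM in IP and at 23.5, 21.95, 21.5 and 24.6 CPM in INPUT, a log2 ratio of 3.78. Notch1 had the same ratio, 3.78. The neuregulin receptor Erbb4, by contrast, had −2.87, from 12.3 ± 2.23 CPM in IP and 89.6 ± 2.33 CPM in INPUT. G protein coupled receptors described in astrocytes divided into clearly separate groups, 14 higher and 13 lower of 28, with a median of 0.06. Gpr37l1 had 3.47, the sphingosine phosphate receptor S1pr1 3.25 and the Wnt receptor Fzd2 3.24. Oxtr, the oxytocin receptor, was at 0.892, 0.838, 0.776 and 0.603 CPM in IP and at 11.2, 9.99, 12.3 and 9.93 CPM in INPUT, a log2 ratio of −3.65.

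Of 29 secreted and engulfment proteins that shape synapses, 20 were higher and 7 lower in IP, with a median of 2.26. Megf10, an engulfment receptor, had 3.92, the secreted lipase Pla2g7 3.81 and Chrdl1, a secreted BMP antagonist, 3.64. Megf10 was at 435, 436, 410 and 432 CPM in IP and at 24.9, 26.1, 28.2 and 34.6 CPM in INPUT. The repulsive guidance cue Sema3a had −3.73 and the matrix protein Tnr, of oligodendrocytes and their precursors, −2.09. Genes described in reactive astrocytes had a smaller median, 0.53, with 13 of 25 higher and 8 lower. Gfap, the intermediate filament of astrocytes, was at 915, 811, 888 and 1174 CPM in IP and at 63.5, 103, 73.04 and 72.4 CPM in INPUT, a log2 ratio of 3.61. Vim had 2.19 and Cd44 2.21. Ptgs2, cyclooxygenase 2, which cortical neurons also make, had −3.73.

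Genes induced by stress hormones and by activity stood on different sides. Among 27 targets of glucocorticoid receptor 15 were higher and 6 lower in IP of stressed mice, with a median of 0.63. Mertk had 3.49, the hypoxia factor Hif3a 2.81 and Dusp1, a phosphatase of MAP kinases, −1.01. Sgk1, a kinase, was at 18.02, 17.9, 19.8 and 13.4 CPM in IP and at 130, 118, 134 and 139 CPM in INPUT, a log2 ratio of −2.92. Of 35 immediate early genes 30 were lower and 3 higher, with a median of −2.44, and 5 were higher without stress IP replicate 15. Egr4 was at 0.892, 0.937, 1.00 and 1.45 CPM in IP and at 26.5, 31.9, 25.2 and 31.7 CPM in INPUT, a log2 ratio of −4.64. The synaptic pentraxin Nptx2 had −4.82. The 3 members higher in IP were Zfp36l2 (2.14) and Zfp36l1 (2.03), which bind AU-rich mRNA and promote its decay, and the antiproliferative gene Btg1 (0.80). The same lists in naïve mice had medians of 0.48 for the glucocorticoid targets and −2.37 for the immediate early genes.

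Of the 35 lists with genes tested, that of neuron classes had the lowest median. All of its 33 genes were lower in IP, with a median of −4.02 and a smallest difference of −1.66 for Fezf2, a transcription factor of deep-layer projection neurons. Presynaptic genes had a median of −3.17 (35 of 38 lower), postsynaptic genes −3.04 (37 of 39 lower), and channels and axonal proteins −3.45 (37 of 38 lower). The complexin Cplx1 had −4.79, neurogranin, Nrgn, −4.84 and the stathmin Stmn3 −4.94. A few members went the other way in every library. Grin2c, the NMDA receptor subunit GluN2C, was at 472, 485, 445 and 533 CPM in IP and at 50.3, 48.9, 52.6 and 52.9 CPM in INPUT, a log2 ratio of 3.24. Unc13c, a vesicle priming protein, had 1.91. Nlgn3, a neuroligin of the postsynaptic side, had 0.21. The adaptor Ank2 had 1.74, with 2508 ± 192 CPM in IP and 749 ± 46.9 CPM in INPUT, whereas the axonal ankyrin Ank3 had −1.36, with 214 CPM in stress IP replicate 15 and 106 to 151 CPM in the other IP libraries.

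Markers of microglia and oligodendrocytes were mostly lower in IP, and those of oligodendrocyte precursors were mixed. Of 28 microglial genes 28 were lower in IP, with a median of −3.35. The complement gene C1qb was at 2.14, 1.63, 1.83 and 1.61 CPM in IP and at 38.4, 44.1, 44.8 and 44.6 CPM in INPUT, a log2 ratio of −4.51, and C1qa had −4.70. Of 25 oligodendrocyte genes 22 were lower, with a median of −3.65 and a lowest value of −5.01 for the myelin protein Pllp. Gpr37 (0.93) and Cnp (0.44) were higher in IP. Among 16 genes of oligodendrocyte precursors 10 were lower and 5 higher, close to the shares over all genes tested, and the summed level of the list was higher in IP, 652 to 716 CPM against 487 to 519 CPM in INPUT. The precursor markers Pdgfra and Gpr17 had −2.81 and −3.61, while the calcium channel Itpr2 had 3.49, the proteoglycan enzyme Xylt1 1.35, and the transcription factors Olig1 1.16 and Olig2 0.43. Olig2 was at 26.98, 36.3, 27.5 and 27.1 CPM in IP and at 23.8, 21.95, 21.05 and 19.97 CPM in INPUT, a small gap that did not pass the threshold when all 16 libraries were fitted together.

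Most endothelial genes were lower in IP, mural and fibroblast genes were mixed, and both lists had negative medians. Of 23 endothelial genes 20 were lower and 3 higher, with a median of −2.86, and Ly6c1 had −4.39. Slco1c1, a thyroid hormone transporter of the blood-brain barrier and of astrocytes, was at 309, 339, 251 and 247 CPM in IP and at 35.1, 22.7, 27.6 and 29.8 CPM in INPUT, a log2 ratio of 3.32. Mfsd2a, a lipid transporter, had 2.89 and Ramp2, a receptor partner whose IP and INPUT values overlapped, 0.40. These members lifted the summed level of the endothelial list to 425 to 570 CPM in IP, above the 209 to 282 CPM of INPUT. Of 18 mural and fibroblast genes 13 were lower and 3 higher, near the shares over all genes tested, with a median of −1.36. After median-ratio scaling 10 were lower and 3 higher, and with quantile normalization 7 lower and 4 higher, with a median of −0.33. Notch3 had 2.41, the receptor Pdgfrb 2.31 and the collagen Col1a2 0.90. Pdgfrb was at 89.02, 114, 110 and 134 CPM in IP and at 22.3, 20.6, 21.4 and 25.2 CPM in INPUT. Whether these vascular mRNAs came from tagged vascular cells or from astrocytes was not tested.

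**Figure D3:**
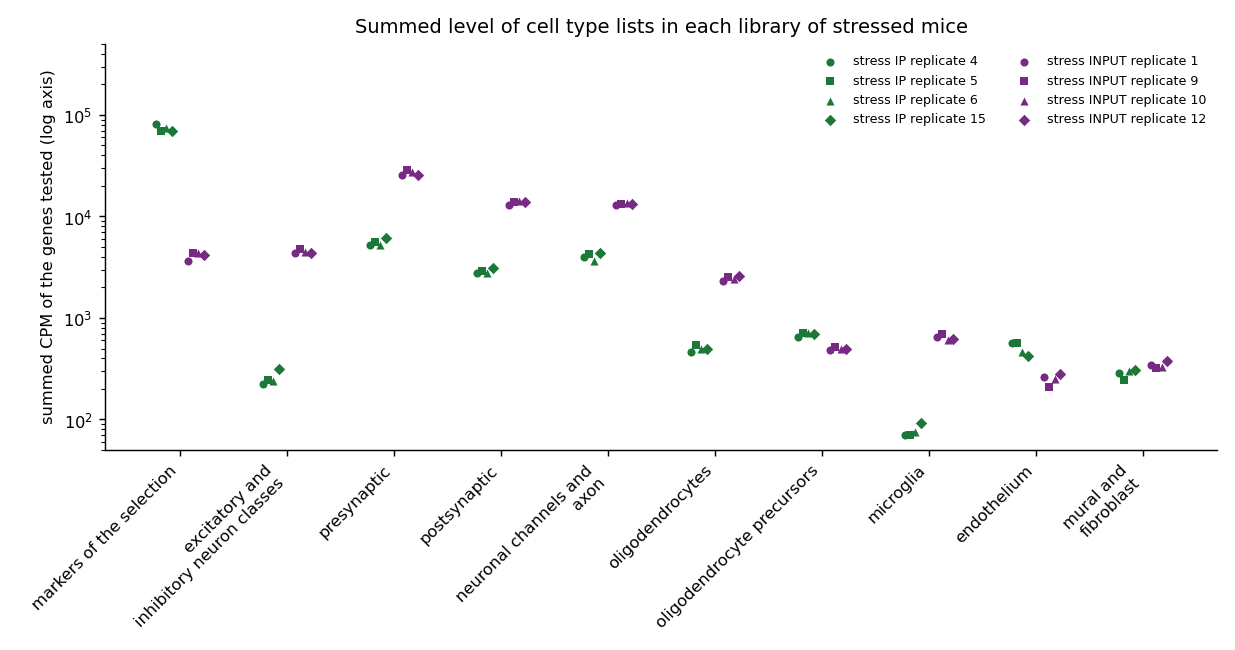
Summed CPM (log axis) of the tested genes of the astrocyte markers and of 9 lists of other cells in each stress IP (green) and stress INPUT (purple) library, with a symbol for each replicate. Neuron class genes summed to 223 to 315 CPM in IP and to 4353 to 4746 CPM in INPUT, and replicate 15 was the highest IP library for neuron class and microglial genes.

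Genes that all cells use lay near the median of all genes, and their direction depended on the scale. Of 34 proteasome genes 25 were lower and 2 higher in IP on the CPM scale, with a median of −0.42, but 19 were higher and 2 lower after median-ratio scaling, with a median of 0.23. The spliceosome changed from 27 lower and 3 higher of 33 to 4 lower and 14 higher, the translation factors from 35 lower and 8 higher of 59 to 16 lower and 32 higher, and the respiratory chain from 47 lower and 14 higher of 75 to 9 lower and 42 higher. Ribosomal proteins did not follow them. Of 75 cytosolic ribosomal protein genes 70 were lower in IP with a median of −1.45, and 61 were still lower after scaling, with a median of −0.80. Rplp1 had −2.63, at 37.3, 49.7, 37.4 and 48.6 CPM in IP and at 295, 295, 246 and 235 CPM in INPUT, and Rps27l, with 0.48, was the exception. Reads of ribosomal protein genes can fall on their many pseudogenes, so single values are uncertain. Histones had 33 of 41 genes lower and a median of −1.79, or −1.19 after scaling, with Hist2h2bb at −4.80, while Hist1h2bc (2.11) and Hist2h2be (1.50) were among 5 genes higher in IP. Histone genes are near-identical copies, so single values are uncertain here too.

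The members at the ends of these lists are given on the CPM scale, and each named next kept its sign after median-ratio scaling. In the respiratory chain the succinate dehydrogenase subunits Sdhc and Sdha had 0.93 and 0.89, and Sdha was at 565, 548, 534 and 608 CPM in IP and at 290, 317, 303 and 303 CPM in INPUT. The subunit-like protein Cox7a2l had −1.71. Among translation factors, the double-stranded RNA kinase Eif2ak2 (PKR) had 2.13 and the kinase of elongation factor 2, Eef2k, 0.49. Eef1a2, the elongation factor of neurons and muscle, was at 45.6, 40.8, 46.7 and 61.4 CPM in IP and at 1370, 1473, 1328 and 1325 CPM in INPUT, a log2 ratio of −4.83. The proteasome subunits Psmd11 (0.68) and Psma6 (0.19) were higher, although Psma6 did not pass the threshold without stress INPUT replicate 12, and Psmc1 had −1.05. In the spliceosome Prpf8 had 0.50 and Snrnp70 −1.49.

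Of 22 long noncoding and imprinted RNAs 16 were lower and 1 higher in IP, with a median of −1.10. After median-ratio scaling 8 were lower and 1 higher, with a median of −0.46. The share lower was then close to that over all genes tested. The 1 of 22 higher was far below the 41.6% over all genes, whose scaled median was 0.01. Peg13, an imprinted RNA of brain, was at 35.5, 34.7, 36.9 and 45.1 CPM in IP and at 386, 374, 382 and 373 CPM in INPUT, a log2 ratio of −3.32. Pantr1, with 0.70, was the member called higher. Xist had the highest ratio of the list, 0.91, but did not pass the threshold. Its level split within every group, as given at the end, so the count of members called higher leaves it out. Kcnq1ot1 did not pass the threshold (log2 ratio −0.13, adjusted p = 0.78), and its values split within each fraction: 71.5, 75.4 and 83.7 CPM in IP replicates 4, 5 and 6 but 24.7 CPM in replicate 15, and 80.1, 89.2 and 88.5 CPM in INPUT replicates 1, 10 and 12 but 25.5 CPM in replicate 9. The summed level of the list was lowest in the same libraries, 2130 CPM in IP replicate 15 against 4968 to 6302 CPM in the other IP libraries, and 4815 CPM in INPUT replicate 9 against 9488 to 12710 CPM in the other INPUT libraries. Whether counts used the strand is not given in the sources used here, so reads of these RNAs and of overlapping genes on the other strand cannot be told apart.

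To see what enriched and depleted genes share at their start sites, the RefSeq promoters on GRCm38.p6, 250 bases before to 50 after the start, were searched on both strands for short motifs, of which the 6 given here were kept after others had been searched too. The letters TTGG of the NFI motif are also in the reverse complement of CCAAT. A promoter was matched for 10034 of the genes tested. The ETS motif CCGGAAG was in 17.3% of these and in 9.12% of all 27025 promoters of that length. Of 647 promoters of genes with a log2 ratio above 2 it was in 5.87%, of 938 with a ratio below −3 in 3.73%, and of 3290 with a ratio between −1 and 0 in 24.6%. Thus the motif was sparse at both ends of the range and frequent in the middle, where the medians of the proteasome, spliceosome, translation factors and respiratory chain lie. It was in 9 of 28 proteasome promoters. The TATA motif TATAAA had the opposite pattern, with 9.74% at the enriched end, 9.81% at the depleted end, 5.62% in the middle and 6.79% over all genes tested, and 14.2% of all promoters of that length. The median number of CG dinucleotides was 16 at the enriched end, 17 at the depleted end and 22 in the middle. The motifs GGAATG (TEAD), ACAAAG (SOX), TTGGCA (NFI) and CCAAT were in 15.3%, 16.7%, 12.7% and 41.9% of the enriched end, in 12.8%, 14.6%, 11.7% and 31.98% of the depleted end, in 11.7%, 11.7%, 10.8% and 39.8% of the middle, in 12.0%, 13.1%, 11.1% and 38.3% of all genes tested and in 14.6%, 18.7%, 14.4% and 37.9% of all promoters of that length. These shares are descriptions with no test, and a match is not a binding site. The promoters of the most enriched and the most depleted gene and of the proteasome subunit Psmc1 are shown to let a reader see promoters without and with the motif. Psmc1, with a log2 ratio of −1.05, is 1 of the 9 proteasome genes that hold it, chosen for that. It lies just outside the class between −1 and 0. Capitals mark the ETS motif or its reverse complement, which has 0 matches in the promoters of Kcnj10 and Npy and 1 in that of Psmc1.
Kcnj10 promoter, chr1:172340960-172341259, plus strand: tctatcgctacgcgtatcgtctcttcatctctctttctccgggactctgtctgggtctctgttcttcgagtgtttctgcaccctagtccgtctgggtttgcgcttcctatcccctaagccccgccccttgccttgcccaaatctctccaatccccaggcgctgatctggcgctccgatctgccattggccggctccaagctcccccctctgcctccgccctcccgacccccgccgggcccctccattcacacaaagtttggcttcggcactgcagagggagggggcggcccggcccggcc
Npy promoter, chr6:49822460-49822759, plus strand: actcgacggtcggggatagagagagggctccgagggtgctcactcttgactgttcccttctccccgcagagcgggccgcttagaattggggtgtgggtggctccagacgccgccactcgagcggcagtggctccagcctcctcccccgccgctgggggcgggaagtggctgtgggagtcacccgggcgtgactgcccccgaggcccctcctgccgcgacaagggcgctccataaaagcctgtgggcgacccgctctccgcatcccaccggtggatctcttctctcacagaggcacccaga
Psmc1 promoter, chr12:100109952-100110251, plus strand: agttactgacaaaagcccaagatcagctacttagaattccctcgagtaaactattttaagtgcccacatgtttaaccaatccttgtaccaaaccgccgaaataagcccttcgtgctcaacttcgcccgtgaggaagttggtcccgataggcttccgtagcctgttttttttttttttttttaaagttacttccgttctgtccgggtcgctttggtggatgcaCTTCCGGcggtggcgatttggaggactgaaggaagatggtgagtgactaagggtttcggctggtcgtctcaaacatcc

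The enrichment in stressed mice was close to that in naïve mice, gene by gene. Of 13255 genes tested in both states, 11056 were called in the same direction, 358 in stressed mice alone and 576 in naïve mice alone. In naïve mice 23.7% of genes were higher and 64.0% lower in IP. The test of the difference between the ratios passed the threshold for 3 of 13341 genes (0.0225%), Zswim6, Rara and Axin2. An unadjusted p under 0.05 in that test was found for 629 genes, no more than chance alone gives. Of the 358 genes called in stressed mice alone, 1 passed the difference test, so for the others no difference between states was shown. Their median absolute log2 ratio was 0.36, and 160 were higher and 198 lower in IP.

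The sign of the ratio differed between the states for 412 genes, of which 27 were called in stressed mice, and 3 genes were called in both states in opposite directions. Zswim6, a zinc finger protein of the SWIM family (chromosome 13, 107724617 to 107890064), was the clearest. It was at 81.9, 77.3, 94.3 and 83.7 CPM in stress IP and at 49.3, 46.7, 42.4 and 46.3 CPM in stress INPUT, but at 32.3, 31.3, 33.96 and 33.2 CPM in naïve IP and at 41, 40.6, 35.4 and 37.1 CPM in naïve INPUT. All stress IP values lay above, and all naïve IP values below, every INPUT value of the series. The log2 ratio was 0.86 ± 0.08 (SE) in stressed and −0.23 ± 0.07 in naïve mice, a difference of 1.10 ± 0.10 (adjusted p = 2.2e-05). After median-ratio scaling both ratios were above 0, 1.52 and 0.43, and the difference was 1.09.

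Mthfd2, a mitochondrial folate enzyme (chromosome 6, 83305691 to 83325908), had a log2 ratio of 0.63 ± 0.16 (SE) in stressed and −0.62 ± 0.25 in naïve mice. It was at 8.12, 7.15, 6.16 and 5.18 CPM in stress IP and at 4.51, 3.76, 4.06 and 4.52 CPM in stress INPUT, against 2.01, 1.57, 3.68 and 1.67 CPM in naïve IP and 2.88, 3.30, 2.89 and 4.22 CPM in naïve INPUT. Naïve IP replicate 11, at 3.68 CPM, overlapped the naïve INPUT libraries. The difference of 1.25 ± 0.31 did not pass the threshold (adjusted p = 0.38). It passed in 2 of 26 alternatives, among them the fit without that library (adjusted p = 0.010). Without naïve IP replicate 13 the adjusted p was 0.78. Opposite calls for this gene were made in 18 of 27 alternatives, against 25 of 27 for Zswim6 and for Rnd3. Rnd3, an atypical small GTPase (chromosome 2, 51130438 to 51149111), was at 12.3, 16.9, 16.98 and 16.1 CPM in stress IP and at 18.5, 18.8, 20.04 and 21.2 CPM in stress INPUT, with a log2 ratio of −0.34 ± 0.11. In naïve mice it was at 25.2, 26.1, 20.3 and 29.2 CPM in IP and at 18.1, 20.6, 17.1 and 21.9 CPM in INPUT, with a log2 ratio of 0.37 ± 0.11, and the naïve values overlapped. The difference of −0.71 ± 0.17 did not pass the threshold (adjusted p = 0.33). It passed in 1 of 26 alternatives, the fit without naïve IP replicate 11 (adjusted p = 0.039). Without naïve IP replicate 13 the adjusted p was 0.78. After median-ratio scaling both ratios of Rnd3 were above 0 (0.31 and 1.03).

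The other genes past the test of the difference were not called in opposite directions. Rara, a retinoic acid receptor (chromosome 11, 98927818 to 98974942), was at 11.8, 13.8, 11.9 and 13.6 CPM in stress IP and at 26.9, 28.4, 30.5 and 31.2 CPM in stress INPUT, a log2 ratio of −1.19 ± 0.09 (SE). In naïve mice it was at 19.6, 17.6, 19.2 and 21.5 CPM in IP and at 17.6, 24.3, 14.9 and 20.1 CPM in INPUT, a log2 ratio of 0.04 ± 0.13. Thus IP and INPUT were apart in stressed mice and overlapped in naïve mice, and the difference was −1.23 ± 0.17 (adjusted p = 0.0045). After median-ratio scaling the ratios were −0.54 and 0.71, both past the threshold. Axin2, a negative regulator and target of Wnt signalling (chromosome 11, 108920349 to 108950783), was at 33.7, 35.8, 38.3 and 41.3 CPM in stress IP and at 45.3, 39.6, 42 and 39.01 CPM in stress INPUT, a log2 ratio of −0.15 ± 0.08 that did not pass the threshold (adjusted p = 0.096) and became 0.50, past the threshold, after median-ratio scaling. In naïve mice it was at 63.4, 60.5, 60.7 and 61.9 CPM in IP and at 40.04, 43.1, 38.4 and 48.01 CPM in INPUT, a log2 ratio of 0.54 ± 0.07. The IP values were thus above INPUT in naïve mice and mixed with INPUT in stressed mice, and the difference was −0.70 ± 0.11 (adjusted p = 0.019). Zswim6 and Rara passed the test of the difference under all 26 alternatives run for it and Axin2 under 16, with an adjusted p of at most 0.086.

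**Figure D4:**
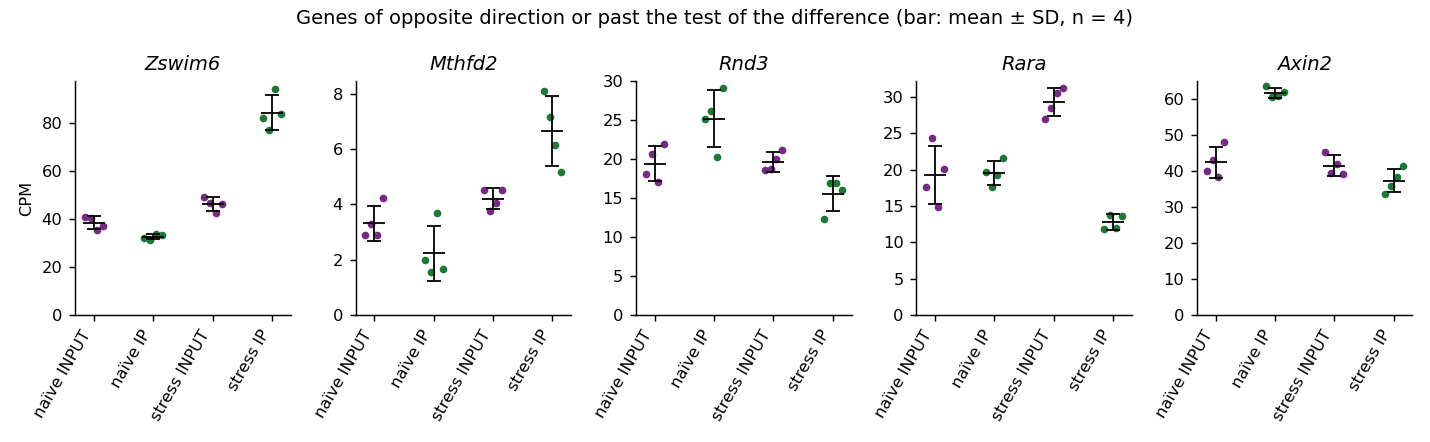
Level in CPM of Zswim6, Mthfd2, Rnd3, Rara and Axin2 in the 4 libraries of each group, with mean ± SD; purple is INPUT and green is IP. For Zswim6 the stress IP points lie above stress INPUT and the naïve IP points below naïve INPUT, and for Rara IP and INPUT are apart in the stressed mice and overlap in the naïve mice.

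**Figure D5:**
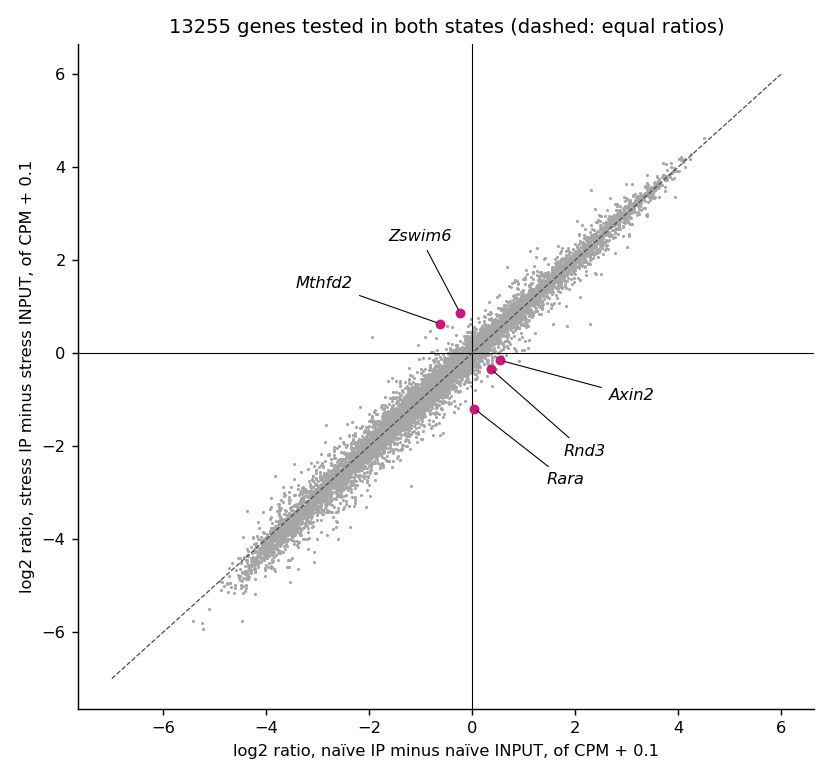
Log2 ratio of IP over INPUT in stressed mice (vertical axis) against that in naïve mice (horizontal axis) for the 13255 genes tested in both, 1 point a gene. Points lie along the dashed line of equal ratios, and the 5 marked genes lie off it, near 0.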

How the data were processed

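RNA of somatosensory cortex was sequenced as immunoprecipitate (IP) and cleared lysate (INPUT), 4 libraries each from stressed and naïve mice. The deposited values are log2 CPM per gene, made by the authors with STAR, HTSeq, edgeR and limma on mm10 per the labels, versions not given in the sources used here. Values above the floor gave whole reads within 0.1 of a read wherever this was checked, and values with many reads were left out of the check. Replicate numbers are library numbers. Values were returned to CPM, genes with a mean above 1 CPM over the 8 libraries kept, and log2(CPM + 0.1) tested in limma 3.58.1 (R 4.3.3) with a variance trend and Benjamini-Hochberg adjustment at 0.05, so ratios of low genes are understated. The difference between states was an interaction term over 16 libraries. On simulated data with 13544 genes, this stress comparison recovered 99 of 99 genes changed by a log2 of 1. Of 100 changed by 0.5 it recovered 95, with 10 false calls. Both simulated fractions were drawn from stress INPUT means with 200 genes changed. Accuracy where most genes differ, as in the real comparison, was thus not measured. Annotation (GENCODE M21, GRCm38) matched 23639 of 24060 symbols (98.3%). Named genes were the markers and the 10 largest and smallest ratios among genes past the threshold, above 20 CPM and without overlap of IP and INPUT. The 3 highest and lowest members and the exceptions of each of 36 lists were also named (the list of mitochondrially encoded genes had 0 genes in the table). So were the 10 highest levels per kb and genes differing between states. Some genes that the rule names are not reported here. The comparison, lists and tests were chosen with earlier results of these data known. Alternatives were other pseudocounts, filters, scalings and models, limma-voom on the recovered reads (11473 genes called), and leaving out each library.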

Additional observations from a re-analysis of the deposited data

Results flagged for a closer look

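A library was far from the other 3 of its group, by Dixon's test at 95%, in 22 of 300 groups of 4 checked over the named genes, where chance gives about 15 (1 in 20). All libraries flagged were of stressed mice, and nothing is concluded from this about the naïve libraries. Stress IP replicate 15 accounted for 5, stress INPUT replicate 9 for 4, stress IP replicates 5 and 6 and stress INPUT replicate 12 for 3 each, stress INPUT replicate 1 for 2, and stress IP replicate 4 and stress INPUT replicate 10 for 1 each.

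In stress IP replicate 15, Npy was at 6.75 CPM against 2.37 to 3.01 CPM in the other 3 libraries and Eno2 at 47.1 against 30.9 to 33.3 CPM, both neuronal genes. There Plxnb1 was at 994 CPM (774 to 792 in the others), Fzd2 at 132 CPM (113 to 116) and Slc1a3 at 7657 CPM (8424 to 8573). In stress IP replicate 5, Tead1 was at 90.8 CPM (118 to 122), Olig2 at 36.3 CPM (26.98 to 27.5) and Mthfd1l at 4.04 CPM (2.99 to 3.05). In stress IP replicate 6, Megf10 was at 409.5 CPM (432 to 436), Cbs at 203 CPM (236 to 238) and Abcg1 at 5.57 CPM (6.65 to 6.83). In stress IP replicate 4, Gldc was at 286 CPM (340 to 347).

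In stress INPUT replicate 9, Kcnq1ot1 was at 25.5 CPM (80.1 to 89.2), Snrnp70 at 75.9 CPM (140.0 to 143), Ank2 at 679 CPM (765 to 776) and Gjb2 at 11.9 CPM (9.22 to 9.52). In stress INPUT replicate 12, Slc4a4 was at 179.8 CPM (149 to 154), Slc1a3 at 667 CPM (615 to 622) and Eif2ak2 at 10.8 CPM (9.74 to 9.82). In stress INPUT replicate 1, Zfp36l2 was at 14.1 CPM (22.3 to 22.7) and C1qb at 38.4 CPM (44.1 to 44.8), and in stress INPUT replicate 10 Cbs was at 20.8 CPM (16.0 to 16.2).

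The ratio of IP to INPUT differed between stressed and naïve mice, by the interaction term, for Zswim6 (1.10 higher on the log2 scale in stressed mice), Rara (difference −1.23) and Axin2 (difference −0.70).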

How the results depend on the processing

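No paired analysis was possible because the replicate numbers are library numbers that no 2 libraries share. The split into higher and lower genes moved with scaling: with median-ratio scaling 5544 genes were higher and 5401 lower in IP, and with quantile normalization 5610 and 5286. Leaving out 1 library gave 3047 to 3134 genes higher and 8036 to 8368 lower. The count of genes whose ratio differed between states was 19 with array weights and 2 to 28 leaving out 1 library, 28 without naïve IP replicate 11 and 5 without stress IP replicate 15. The count of opposite genes was 5 with median-ratio scaling, 8 with quantile normalization, 7 with array weights and 2 to 7 leaving out 1 library, 6 without naïve IP replicate 11 and 7 without stress IP replicate 15. Medians of lists changed sign under the median-ratio and the quantile scaling for glycolysis (0.59, 0.41), proliferation (0.55, 1.01), the respiratory chain (0.27, 0.17), the proteasome (0.23, 0.13), translation factors (0.23, 0.22) and the spliceosome (0.13, 0.052), as did the ratios of Kcnq1ot1 (0.52, 0.41), Axin2 (0.50, 0.42), Zic1 (0.31, 0.34), Rnd3 (0.31, 0.29) and Ebp (0.020, 0.068). With no filter, G protein coupled receptors had −0.36, reactivity genes −0.076 and choroid plexus genes −0.16. Proliferation genes had 0.65 above 5 CPM and 0.014 with array weights. Leaving out 1 library gave ranges that crossed 0 for the medians of glycolysis (−0.14 to 0.047), proliferation (−0.17 to 0.072) and choroid plexus genes (−0.071 to 0.21) and for the ratios of Kcnq1ot1 (−0.57 to 0.27) and Xist (−0.94 to 2.92). Of 145 genes named, 6 changed sign in some alternative, and 10 changed sign or passed to the other side of the test's threshold. The causes were not tested. No ratio of a gene under 3 reads in a library is read as a fold.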

Other observations

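Transcript types differed in their ratios. Of 12837 protein-coding genes tested in stressed mice 3075 were higher and 8003 lower in IP, with a median log2 ratio of −0.62. Of 111 lincRNAs 14 were higher and 77 lower, with a median of −1.18, and of 72 antisense RNAs 10 were higher and 52 lower, with a median of −0.93. Across 5 classes of exon length of equal size, from shortest to longest, the medians were −0.67, −0.64, −0.69, −0.56 and −0.47. Choroid plexus and ependymal genes had 1 of 7 higher and 3 lower, with a median of 0.07. Their summed level was lower in IP, 75.9 to 100 CPM against 260 to 269 CPM in INPUT of stressed mice. Proliferation genes had 3 of 13 higher and 4 lower, with a median of −0.08.

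Xist, the RNA of the inactive X chromosome, was above 100 CPM in 2 libraries of each group and below 1 CPM in the other 2. The high libraries were at 665 and 496 CPM in stress IP, 122 and 144 CPM in stress INPUT, 518 and 576 CPM in naïve IP, and 167 and 145 CPM in naïve INPUT. The level in IP was thus above that in INPUT within the high libraries of both states, and this was not tested. Reads of Tsix, its antisense partner, cannot be told apart from those of Xist. Kcnq1ot1 was also low in naïve IP replicate 11, at 28.98 CPM.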
